A study of Mus musculus with 2 samples.

Results

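Monocytes were a small population in these single-cell libraries of sorted mouse brain cells, at 158 of 19161 cells that passed the quality filter. They were chosen by their own counts. Members had at least 3 UMIs (unique molecular identifiers, each counting 1 captured RNA molecule) summed over Ly6c2, Ccr2, Plac8 and Chil3, and at least 1 UMI of Csf1r. They also had at most 4 UMIs summed over C1qa, C1qb and C1qc, at most 19 over S100a8 and S100a9, and none of Cd79a or Cd3e. The library labelled IL34LacZ/LacZ held 109 of them among 10349 cells, and the library labelled IL34LacZ/+ held 49 among 8812 cells. The series sorted mural cells, fibroblasts, endothelial cells, astrocytes, border-associated macrophages and microglia from whole brains of adult mice, and no gate was named for monocytes. The first group carried the LacZ allele of Il34, the gene of a cytokine that signals through CSF1R, on both chromosomes. The animals they were set against carried the same allele on 1 chromosome, so both groups carry the allele and no wild-type mice entered the comparison. Each genotype was 1 library, and how many animals it came from is not stated in the labels used. With 1 library per genotype there is no test, and differences between the libraries are given as values. All intervals below are 95% intervals that cover counting error only.

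Monocytes form in the bone marrow from granulocyte-monocyte precursors and enter the blood through CCR2, the receptor of the chemokine CCL2. Classical monocytes carry Ly6C on their surface and can leave the vessels, where they become macrophages or cells that resemble dendritic cells. Nonclassical monocytes lose Ly6C and CCR2, depend on the transcription factor NR4A1 and patrol the vessel wall. In the healthy brain, microglia and most border macrophages maintain themselves with little input from blood monocytes, while some border macrophages are replaced from them.

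Of the 158 cells, 100 stood in subclusters led by classical genes, by nonclassical genes, or by MHC class II and interferon genes. The other 58 stood in subclusters led by granule protease and cell cycle genes, by Cd209a and Mgl2, or by fibroblast genes, so the label covers them only in part. A monocyte carried a median of 7635 UMIs (2061 to 27757) in the IL34LacZ/LacZ-labelled library and 6035 UMIs (1811 to 26787) in the IL34LacZ/+-labelled library. These summed to 1044585 and 365778 UMIs, so the second library set the precision of each ratio. Doublet calling marked 4 and 1 of the cells. The libraries shared 103 cell barcodes, of which 0 and 1 belonged to monocytes. Transcripts of Ttr, the choroid plexus gene for transthyretin, were found in 109 of 109 and 49 of 49 monocytes, at 1288 CPM (UMIs per 1000000 UMIs of the same cells) and 2307 CPM. Ttr also reached 99.8% and 100% of microglia, at 29560 and 55938 CPM, at median depths of 3444 and 3106 UMIs. Il34 itself had 0 UMIs in the monocytes of either library and 7.56 CPM (6.88 to 8.29) against 6.57 CPM (5.89 to 7.31) over all cells. Where the allele interrupts the gene relative to the 3′ end counted here is not stated in the labels either, so this count does not check the genotype labels.

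Monocytes made up a larger share of cells in the IL34LacZ/LacZ-labelled library. They were 1.05% of its cells (Clopper-Pearson interval 0.866% to 1.27%), against 0.556% (0.412% to 0.734%) in the IL34LacZ/+-labelled library, a ratio of 1.89 (1.34 to 2.71). Neutrophils and their precursors, taken as cells with at least 20 UMIs of S100a8 and S100a9, were 1.73% against 1.01% of cells (ratio 1.71, 1.32 to 2.23). The ratios of other blood cells lay close to this. B-lineage cells, with at least 3 UMIs of Cd79a, were 1.04% against 0.533% (1.96, 1.38 to 2.82), and T cells, with at least 2 UMIs of Cd3e, were 0.338% against 0.182% (1.86, 1.004 to 3.604). These last 2 rules were added after the data were seen. Among monocytes and neutrophils together, monocytes were 37.8% of the IL34LacZ/LacZ-labelled and 35.5% of the IL34LacZ/+-labelled cells, with a ratio of 1.07 (0.754 to 1.53). Border-associated macrophages were 14.4% against 17.9% of cells (0.804, 0.748 to 0.864) and microglia were 11.1% against 9.18% (1.21, 1.10 to 1.32). The sort and the blend of sorted populations set all of these shares, and their part in the ratios was not tested.

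The genes of the rule were spread unevenly over the members. Ccr2 was found in 96 of 109 and 43 of 49 cells, with medians of 6 UMIs (0 to 23) and 5 UMIs (0 to 25). Plac8, which encodes a small cysteine-rich protein of myeloid cells, was found in 91 and 42 cells. Ly6c2, the gene of the Ly6C antigen, was found in 62 and 29 cells, with a median of 2 UMIs in both libraries and a highest value of 106 and 70. Chil3, which encodes the secreted chitinase-like protein Ym1, was found in only 33 and 17 cells, so most members had none of it. In microglia, a cell type that should lack these genes, Ccr2 was found in 2.18% and 2.10% of cells and Plac8 in 2.35% and 1.36%. The shares in monocytes were higher, but the rule chose the members by these genes, so the gap is a description. Median depths differed too, at 7635 and 6035 UMIs in monocytes against 3444 and 3106 in microglia. The summed markers had a median of 38 UMIs (3 to 199) and 36 UMIs (3 to 167). At the edge of the rule, 3 and 1 members had exactly 3 marker UMIs, and 6 and 2 cells with 2 stood just outside it. The condition on Csf1r, the CSF1 and IL-34 receptor, lay closer: 36 and 19 members had exactly 1 UMI of it, and 68 and 40 cells that met every other condition had 0.

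**Figure D1:**
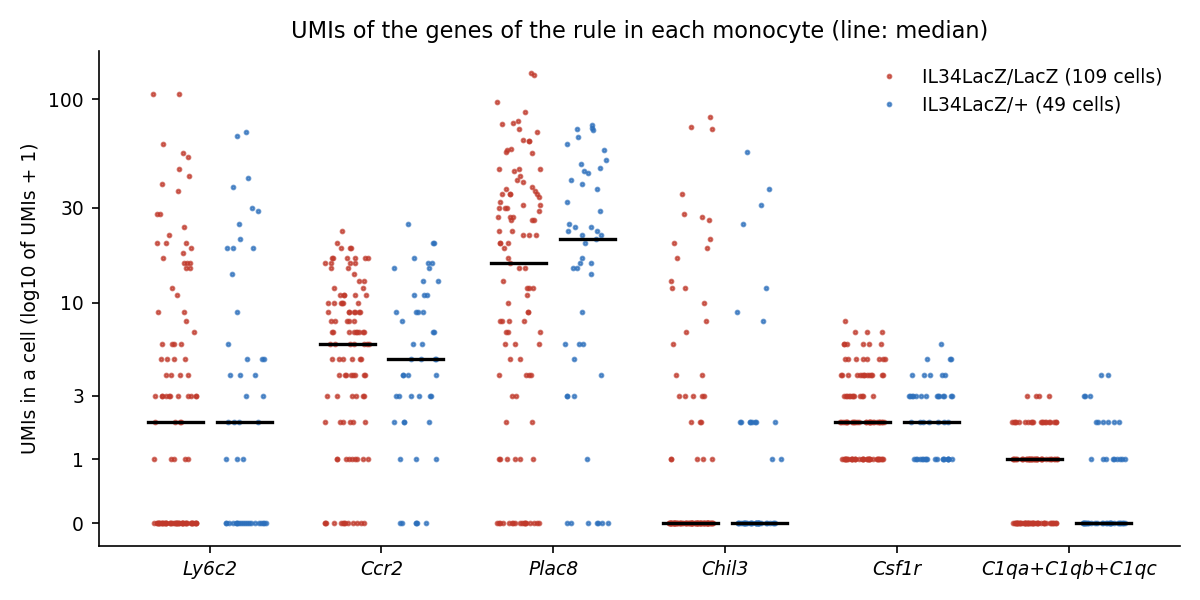
UMIs per monocyte (log axis of UMIs + 1) of the 4 markers, Csf1r and the summed C1q genes, 1 point a cell, red for the 109 IL34LacZ/LacZ-labelled and blue for the 49 IL34LacZ/+-labelled cells, black line for the median. The libraries overlap for every gene, and Ly6c2 and Chil3 are at 0 in many cells of both.

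The summed levels of these 5 genes were all lower in the IL34LacZ/LacZ-labelled library, and none reached the 2-fold threshold used here. Since they chose the cells, this is a description. Plac8 stood at 2543 CPM against 3368 CPM (ratio 0.755, 0.705 to 0.808), Ly6c2 at 958 against 1236 CPM (0.78, 0.69 to 0.87) and Ccr2 at 751 against 924 CPM (0.81, 0.71 to 0.93). Chil3 had 501 against 536 CPM (0.93, 0.79 to 1.11) and Csf1r 279 against 317 CPM (0.88, 0.71 to 1.10). On build mm10, Ly6c2 lies at chr15:75108158-75111970, Ccr2 at chr9:124101950-124113557, Plac8 at chr5:100553725-100572245 and Chil3 at chr3:106147554-106167564. Reads of Ly6c2 and its neighbour Ly6c1 are hard to tell apart, because the last 400 bases of their transcripts are 96.5% identical, and those of Chil3 and Chil4 are 90% identical.

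Clustering of the 158 cells gave 6 subclusters, each with cells of both libraries. The genes that define them also formed them, so their levels are a description. The largest, with 33 IL34LacZ/LacZ-labelled and 13 IL34LacZ/+-labelled cells, was classical monocyte-like. Its leading genes held Chil3, Clec4e, a receptor for necrotic cells and mycobacteria, Fn1, which encodes fibronectin, and Lyz2, the lysozyme of myeloid cells. Lyz2 had a median of 181 UMIs (highest 443) and 95 UMIs (highest 453) per cell there. F13a1, the coagulation factor XIII chain of monocytes and macrophages, stood at 724 CPM against 876 CPM, and was found in 29 of 33 and 11 of 13 cells. MHC class II genes were low in this subcluster, at 1814 CPM against 1191 CPM for the whole list.

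The nonclassical monocyte-like subcluster held 15 IL34LacZ/LacZ-labelled and 8 IL34LacZ/+-labelled cells. It was led by Eno3 (an enolase), S1pr5, the sphingosine phosphate receptor by which nonclassical monocytes leave the marrow, Ace, the angiotensin-converting enzyme, and Fcgr4, an activating IgG receptor. Cx3cr1, the fractalkine receptor, was found in every cell of both libraries there, at 592 CPM against 662 CPM. Nr4a1 stood at 744 CPM against 576 CPM. Ly6c2 was found in 5 of 15 and 1 of 8 cells, and Ccr2 in 11 of 15 and 4 of 8 with medians of 1 and 0.5 UMIs. Plac8 had 3429 CPM against 2995 CPM and was found in 14 of 15 and 7 of 8 cells. These were also the shallowest cells, with a median of 4213 UMIs. In each library 1 cell of this subcluster held most erythrocyte-gene UMIs, at 4735 and 4961. Those genes made up 60120 and 143145 CPM of the subcluster, which lowers its other CPM values, more so in the IL34LacZ/+-labelled library.

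A precursor subcluster held 21 IL34LacZ/LacZ-labelled and 10 IL34LacZ/+-labelled cells and was granulocyte-monocyte precursor-like. Its leading genes were those of the primary granule proteases Elane, Prtn3 and Ctsg, of the peroxidase Mpo, and of the cell cycle (Pclaf, Top2a, Mki67). Prtn3 had 3277 CPM against 2672 CPM and was found in 16 of 21 and 8 of 10 cells. Mki67, a marker of cycling cells, was found in 13 of 21 and 6 of 10 cells, at 299 CPM against 254 CPM. Irf8, the transcription factor that turns precursors toward monocytes, was found in 17 and 8 cells, at 479 CPM against 538 CPM. Ly6c2 stood at 1666 CPM against 2083 CPM. The depth was also highest among the large subclusters, at a median of 15807 UMIs per cell. Mature neutrophil markers summed to 226 CPM against 257 CPM over all 158 cells, a level that the rule's limit on S100a8 and S100a9, both on the list, holds down. In this subcluster 4 cells, 2 from each library, carried all the UMIs of Prss34, a protease of basophils and mast cells, and 1 cell of the IL34LacZ/LacZ-labelled library carried 1313 of the 1315 UMIs of Prg2 and all 131 of Epx, the genes of eosinophil granule proteins.

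MHC class II genes split the members and were among the leading genes of 2 subclusters. Over all members, the class II list summed to fewer than 10 UMIs in 54 of the 109 IL34LacZ/LacZ-labelled and 24 of the 49 IL34LacZ/+-labelled cells. It summed to at least 100 UMIs in 36 and 14 cells. The first of the high subclusters, with 20 and 11 cells, also held the interferon genes Isg15, Irf7 and Rtp4 among its leading genes and kept Lyz2 (15174 against 19624 CPM), Ccr2 in all 31 cells and Plac8 in 30 of 31. The class II list reached 48808 CPM against 45104 CPM in it. Ciita, the coactivator that switches class II genes on, was found in 11 of 20 and 7 of 11 cells.

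The second, with 14 IL34LacZ/LacZ-labelled and 6 IL34LacZ/+-labelled cells, had the highest class II sum, at 62178 CPM against 62497 CPM. It was led by Cd72, H2-DMb2, Mgl2 and Klrd1, and by Cd209a, a lectin of conventional dendritic cells and of dendritic cells that come from monocytes. Cd209a was found in 13 of 14 and 6 of 6 cells, with medians of 19.5 and 19 UMIs. These cells met the rule through Ccr2, found in all 20. Plac8 gave 2 and 1 UMIs in all, and Ly6c2 gave 0 and 0. Lyz2 was low, at 1570 CPM against 2098 CPM. Of the dendritic cell markers, Kmo was found in 6 and 3 cells, Batf3 in 5 and 3 and Flt3, the growth factor receptor of dendritic cell precursors, in 5 and 0, while Xcr1, Itgae and Ccr7 had no UMI in any member of either library. The subcluster is therefore left without a cell type name.

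The promoters of the class II genes are shown because these genes are high in the same subclusters. Each stretch gives the 120 bases before the RefSeq gene start on build GRCm38.p6, read along the gene's strand, with TGATTGG in capitals, the Y box that is bound by the factor NF-Y.
H2-Aa, chr17:34287824-34287943, minus strand: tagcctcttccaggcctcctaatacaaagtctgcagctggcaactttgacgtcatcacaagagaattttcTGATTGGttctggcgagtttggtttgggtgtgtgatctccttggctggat
H2-Eb1, chr17:34305747-34305866, plus strand: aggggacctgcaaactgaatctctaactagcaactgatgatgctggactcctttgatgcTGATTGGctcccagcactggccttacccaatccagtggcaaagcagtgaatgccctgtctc
H2-DMb1, chr17:34153071-34153190, plus strand: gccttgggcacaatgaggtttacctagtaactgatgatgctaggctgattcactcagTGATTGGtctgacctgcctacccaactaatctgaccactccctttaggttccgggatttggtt
H2-DMb2, chr17:34145129-34145248, plus strand: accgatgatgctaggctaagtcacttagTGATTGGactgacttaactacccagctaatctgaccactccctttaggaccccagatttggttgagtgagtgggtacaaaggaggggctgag
H2-Oa, chr17:34092259-34092378, plus strand: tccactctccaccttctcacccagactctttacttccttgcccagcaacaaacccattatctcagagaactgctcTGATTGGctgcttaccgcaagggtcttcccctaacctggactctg

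The motif began 50 bases before the start of H2-Aa, which encodes the alpha chain of I-A, 61 before that of H2-Eb1, the beta chain of I-E, and 63, 92 and 45 before those of H2-DMb1, H2-DMb2 and H2-Oa, subunits of the complexes that load peptides or restrain loading. Of the 9 genes of the class II list, 6 had a promoter in the RefSeq table. Of these, 5 held TGATTGG on either strand within the 120 bases before the start, the stretch searched in every promoter. Over all 27025 promoters of the table it was found in 6.06%. It was found in 5 of 9 promoters of the MHC class I list, in 7 of 15 of the cell cycle list, in 0 of 9 of the classical and in 1 of 13 of the nonclassical list. A match of 7 letters is a description and does not show that a factor binds there.

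The last subcluster held 6 cells of the IL34LacZ/LacZ-labelled library and 1 of the IL34LacZ/+-labelled library. It was led by Slc47a1, Foxp2, Col6a1 and Col1a1, and the fibroblast markers summed to 8662 CPM against 9861 CPM in it, while they reached at most 416 CPM in any other subcluster. Doublet calling marked 3 of these 7 cells, and their median depth was 19091 UMIs. The subcluster has no cell type name. Without it, the genotype comparison below had 36 genes past its threshold upwards and 8 downwards, against 51 and 8 with it.

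**Figure D2:**
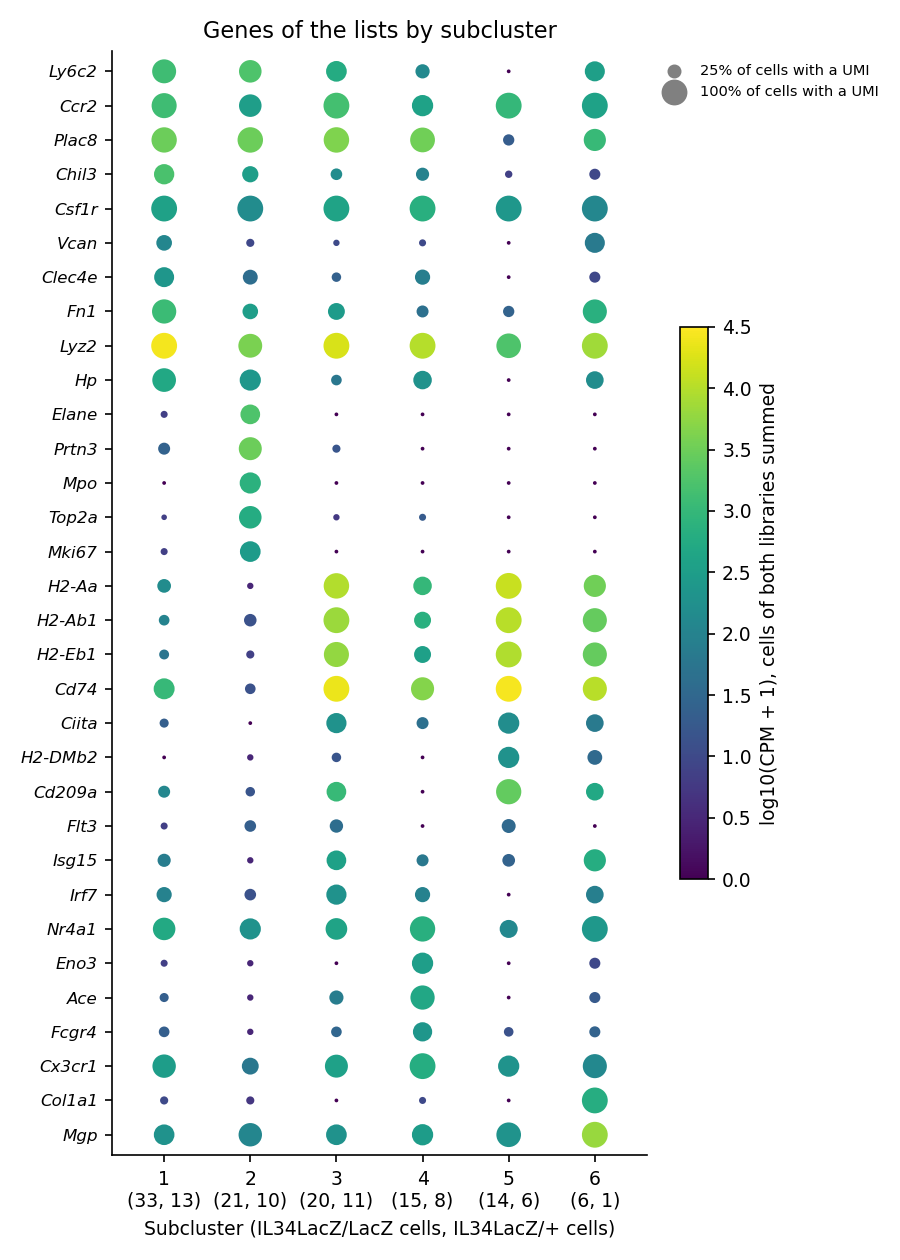
Level of list genes in the 6 subclusters, with colour for log10(CPM + 1) over the cells of both libraries and point area for the share of cells with a UMI. Granule protease and cell cycle genes are high in subcluster 2, class II genes in 3 and 5, Eno3, Ace and Fcgr4 in 4 and Col1a1 in 6, while Ly6c2 and Plac8 are near 0 in 5.

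As shares of the monocytes, the subclusters differed between the libraries by less than their counting error. The classical monocyte-like cells were 30.3% of IL34LacZ/LacZ-labelled and 26.5% of IL34LacZ/+-labelled monocytes, and the precursor-like cells were 19.3% against 20.4%. The class II and interferon subcluster held 18.3% against 22.4%, the nonclassical monocyte-like cells 13.8% against 16.3%, and the Cd209a subcluster 12.8% against 12.2%. The fibroblast-gene subcluster held 5.50% against 2.04%. All 6 pairs of intervals overlapped. As a share of all cells that passed the quality filter, subcluster 1 was 0.319% against 0.148% (ratio 2.16, 1.11 to 4.47), and the intervals of the other 5 ratios held 1. With 49 cells in the smaller library, differences within these intervals were not detectable.

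**Figure D3:**
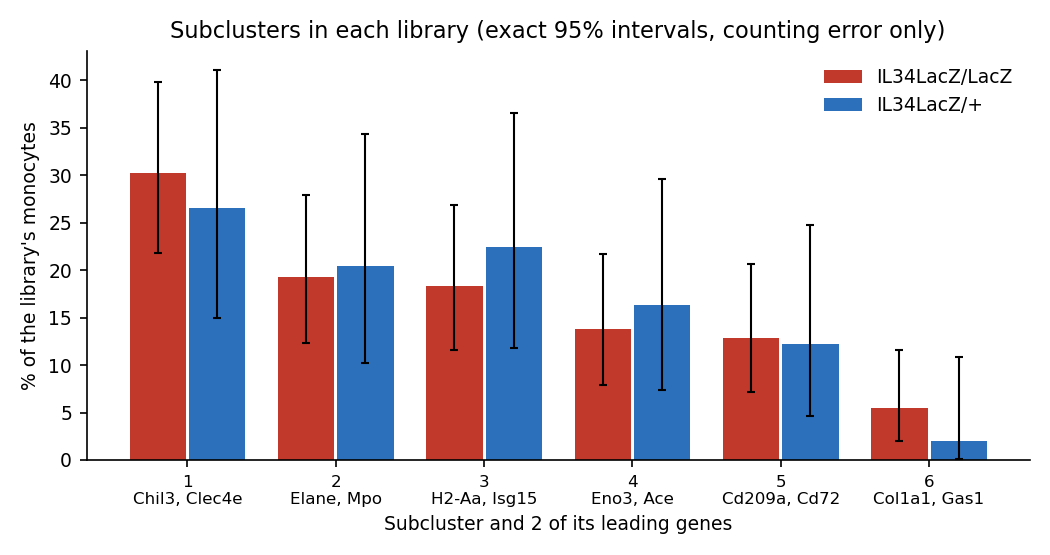
Share of each library's monocytes in the 6 subclusters, red for IL34LacZ/LacZ-labelled and blue for IL34LacZ/+-labelled cells, with exact binomial intervals. The intervals are wide and overlap in every subcluster.

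Monocytes stood apart from border-associated macrophages, microglia and neutrophils by S100a4, Tmsb10, Crip1 and S100a10, among others. Of 1887 genes with at least 100 UMIs in the members, 124 (6.57%) were at least 2-fold higher in them than in each of the 3 other sets, in each library. Without the precursor-like subcluster the count was 82. Border-associated macrophages were cells with at least 10 C1q UMIs, at least 3 of Mrc1, Pf4 and Cd163 and at most 1 of P2ry12, Tmem119 and Sall1, and microglia had the last 2 conditions exchanged. The comparison has no test. Ly6c2, Ccr2, Plac8, Chil3 and Csf1r chose the members, so their levels there follow in part from the rule. The C1q and S100 genes and the 6 macrophage and microglia markers above separate the sets by construction. Ccr2, Plac8 and Ly6c2 are among the 124 genes.

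S100a4, a calcium-binding protein of motile cells, had 821 CPM in IL34LacZ/LacZ-labelled monocytes, against 22.4 CPM in border macrophages, 12.01 in microglia and 62.5 in neutrophils. In the IL34LacZ/+-labelled library it had 938 CPM in monocytes, against 10.5, 6.44 and 15.8 CPM. It was found in 93 and 40 members. Tmsb10, a thymosin that binds actin monomers, had 4715 and 4752 CPM in monocytes of the 2 libraries and between 163 and 469.8 CPM in the other sets. Crip1, S100a10 and Itgb7, an integrin beta chain, were at least 7.61-fold higher in monocytes than in each set. Ms4a4c, of the classical list, had 317 and 375 CPM, at least 11.4-fold over each set. Napsa, an aspartic protease, had 418 and 465 CPM and was found in 97 and 38 cells, and Nr4a1, of the nonclassical list, had 319 and 383 CPM. Of the 20 genes with the highest lowest ratio, Prss34, Mcpt8 and Cpa3, genes of basophils and mast cells, rested on 2 to 4 cells of a library, while Ccr2 belonged to the rule. The others were Ass1, Tnip3, Mcub, Fn1, Rnase6, Gm9733, Clec4b1 and Macroh2a1.

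Over all 1887 genes, 325 were 2-fold higher in monocytes than in border macrophages, 407 than in microglia and 198 than in neutrophils, while 105, 128 and 33 were 2-fold lower. By list, 5 of 6 class II genes with enough UMIs were 2-fold over each set, with H2-DMa the exception at 1.88-fold over microglia of the IL34LacZ/LacZ-labelled library. H2-Aa had 3263 and 3519 CPM in monocytes, against 1143 and 784 in border macrophages, of which only some carry class II. The list summed to 45104 to 62497 CPM in subclusters 3 and 5 of the monocytes, against 203 to 1814 CPM in subclusters 1 and 2. Subclusters 4 and 6 lay between, at 7198 and 6450 CPM and at 21498 and 6151 CPM, the last from 1 cell. The border macrophages were not divided by class II. Of the 13 classical genes outside the rule, 12 were 2-fold over microglia but 4 over neutrophils, and 2 (Fn1 and Ms4a4c) were 2-fold over all sets. Lyz2 had 10997 and 12855 CPM in monocytes, 6832 and 6971 in border macrophages, 751 and 335 in microglia and 7318 and 6260 in neutrophils. Cell cycle genes were 2-fold over border macrophages for 7 of 8 and over microglia for 8 of 8. The precursor-like cells carried most of their UMIs, at 7839 and 8435 CPM for the list against 315 to 1320 CPM in the other subclusters. Lysosomal genes ran the other way: 0 of 15 were 2-fold higher than any set, while 9 were 2-fold lower than border macrophages and 11 than microglia. Apoe, the lipid carrier of tissue macrophages, had 1133 CPM in IL34LacZ/LacZ-labelled monocytes, against 32145 CPM in border macrophages.

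**Figure D4:**
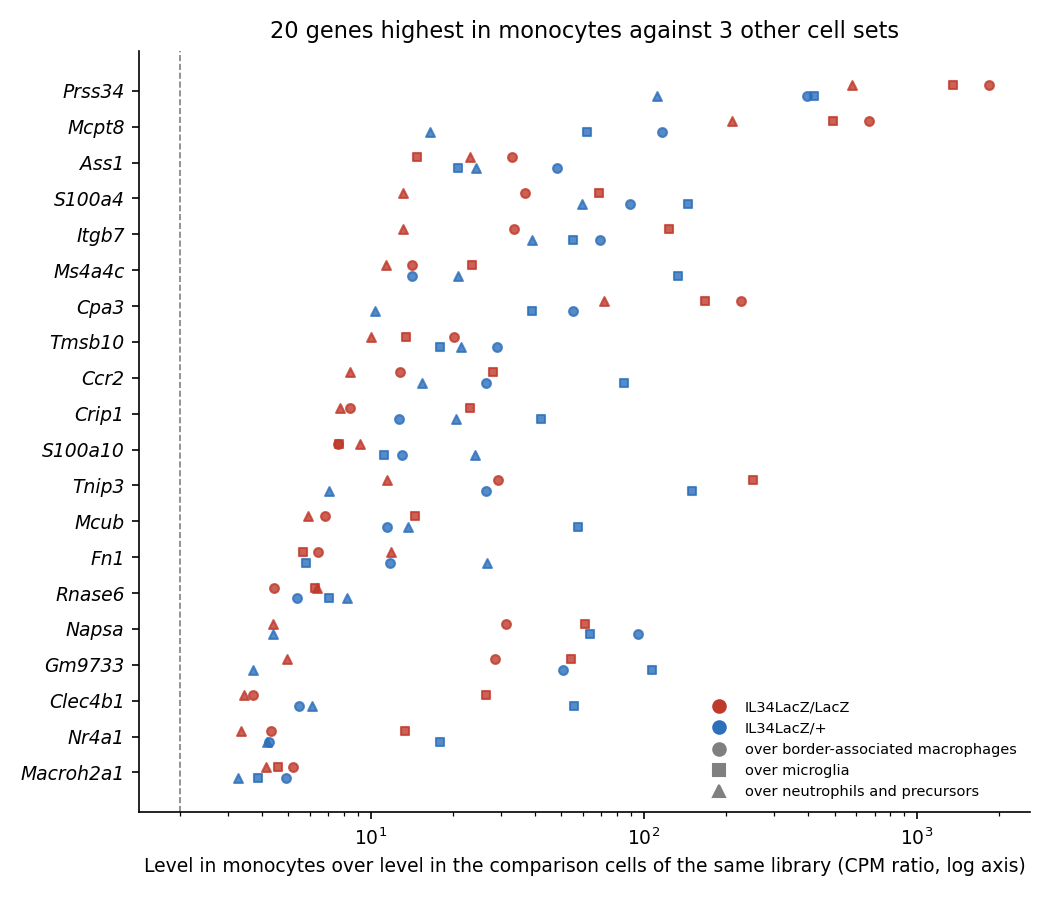
CPM in monocytes over CPM in 3 comparison sets of the same library (log axis) for the 20 genes whose lowest ratio was highest, red for IL34LacZ/LacZ-labelled and blue for IL34LacZ/+-labelled cells. A set with fewer than 3 UMIs was put at 3, and the dashed line marks 2-fold. The lowest ratio of a gene runs from 112 for Prss34 to 3.28 for Macroh2a1.

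Between the libraries, few genes passed the threshold, and most of those rested on a few cells. Of the 1887 genes, 51 (2.7%) were at least 2-fold higher in the IL34LacZ/LacZ-labelled library with an interval that excluded 1, and 8 (0.424%) were at least 2-fold lower. With every cell thinned to 2000 UMIs, 3 were higher and 4 lower among 407 genes, and with the mean of per-cell CPM 33 were higher and 13 lower, so the count of higher genes depends on how cells are weighted. The IL34LacZ/LacZ-labelled library held 1044585 of the UMIs against 365778, so the minimum of 100 rests mostly on it. In 32 of the 51, over 50% of the UMIs of that library came from 3 cells, as against 56 of all 1887 genes. The same held for all 8 lower genes in the IL34LacZ/+-labelled library, as against 103 of 1887. When the highest 2 of 109 and 1 of 49 cells of each gene were left out, 18 genes were higher and 1 lower. This was among 1617 genes that kept 100 UMIs, and 15 of the 18 were among the 51. When 7 of 109 and 3 of 49 were left out, 4 were higher and 2 lower among 1256 genes. None of the 8 lower genes was counted under either setting. A gene that fell below 100 UMIs was not counted whatever its ratio, as with Ccl2 below. Subclusters mix in different numbers in the libraries, so a change in the makeup of the members and a change within a cell cannot be told apart in these sums.

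**Figure D5:**
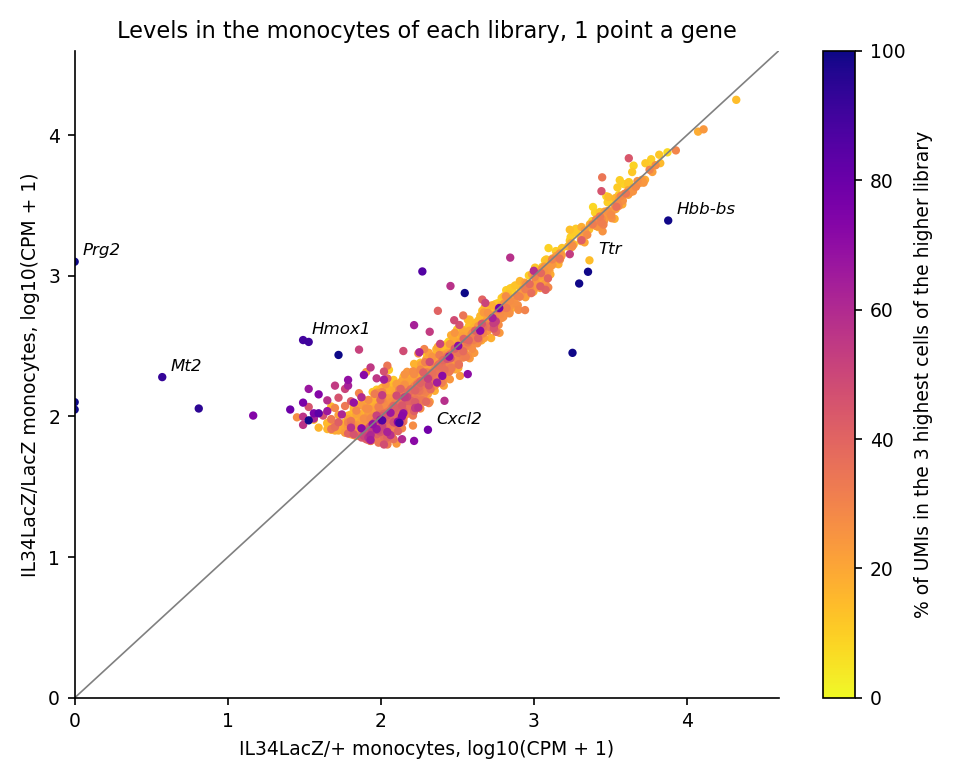
Level of 1887 genes in monocytes, IL34LacZ/LacZ-labelled on the vertical and IL34LacZ/+-labelled on the horizontal axis, both as log10(CPM + 1), coloured by the share of UMIs in the 3 highest cells of the library where the gene is higher. Points far from the diagonal, such as Prg2, Mt2, Hmox1 and Hbb-bs, are dark, since 3 cells carry most of their UMIs, while Ttr lies below it with its UMIs spread over all cells.

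The gene with the highest level among the 51 was Prg2, at 1259 CPM in the IL34LacZ/LacZ-labelled library and 0 UMIs in the IL34LacZ/+-labelled library. With 3 UMIs over the library put in place of 0 it was 153-fold higher, and the interval of the ratio against 0 began at 125. Nearly all Prg2 UMIs came from the single eosinophil-gene cell above. Epx and Prg3 (125 and 111 CPM against 0) came from the same cell, and 94.4% of Mcpt8 (273 against 51.9 CPM) from 1 basophil-gene cell. Gja1, a gap junction gene of astrocytes and meningeal fibroblasts, had 101 against 13.7 CPM, and 0.90 was its ratio within subclusters 1, 3 and 4.

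Stress-response genes shared their source too. Hmox1, the haem oxygenase that degrades haem, had 348 CPM against 30.1 CPM (ratio 11.6, 6.4 to 23.4), and 3 cells of subcluster 1 held 175, 85 and 67 of its 364 UMIs. Mt1 had 1073 against 186 CPM (5.77, 4.52 to 7.49). The same 3 cells held 85.8% of Mt1 and 92.9% of Mt2, metallothioneins that bind zinc and copper, and 94.9% of Slc7a11, the cystine transporter, and 83.5% of Lpl, 79.3% of Clec4n and 63.7% of Ctsd. They met the rule through Chil3, with 82, 74 and 72 of the 411 Chil3 UMIs that IL34LacZ/LacZ-labelled cells had in that subcluster. They had no Ly6c2 or Ccr2 and 0, 1 and 0 UMIs of Plac8, so their markers go against the classical name of the subcluster. Doublet calling marked none of them. Without them Hmox1 had 37.4 CPM against 30.1, Mt1 161 against 186, Slc7a11 6.07 against 5.47, and the lysosomal protease gene Ctsd 171 against 164; with them Ctsd had 445 CPM. Mt2 stayed higher, at 14.2 CPM against 2.73 CPM, on 14 UMIs and 1.

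A smaller group of higher genes was spread over many cells. Hk2, which encodes the hexokinase that starts glycolysis, had 117 CPM against 46.5 CPM (ratio 2.51, 1.51 to 4.45), from 122 UMIs in 61 cells and 17 UMIs in 16 cells. No cell held more than 7 of these UMIs. Hk2 was higher in each of the 6 subclusters, the last with 1 IL34LacZ/+-labelled cell. It had 108 against 57.4 CPM in the classical monocyte-like and 176 against 28.8 CPM in the nonclassical monocyte-like cells. The values of the IL34LacZ/+-labelled library rest on 4 UMIs and 1 UMI there, too few to compare subclusters. The ratio was 3.02 with every cell thinned to 2000 UMIs and 2.32 without the 7 and 3 highest cells. The other genes of the glycolysis list did not share this: 7 more had at least 100 UMIs, none passed the threshold, and Pkm, Pgk1 and Eno1 had ratios of 0.84, 0.82 and 0.86. Id2, an inhibitor of basic helix-loop-helix factors that dendritic cells and monocytes express, had 206 CPM against 79.3 CPM (2.60, 1.76 to 3.97), from 215 UMIs in 55 cells and 29 UMIs in 20 cells. Its ratio was 1.61-fold after thinning and 1.80-fold within subclusters 1, 3 and 4. Id2 and Cd9, a tetraspanin, were the only genes of the 51 still counted past the threshold without the 7 and 3 highest cells. Leaving out cells also takes genes below the minimum of 100 UMIs, so a gene can drop out with its ratio kept. Cd9 was less spread, with 51.8% of its UMIs in the IL34LacZ/LacZ-labelled library from the 3 Hmox1-high cells. Without these cells it had 152 CPM against 71.1 CPM. Edem1, Saraf, Clec2d and Churc1 had at most 27.5% of their UMIs in 3 cells of the IL34LacZ/LacZ-labelled library and ratios of 2.01 to 3.57, on 10 to 16 UMIs in the IL34LacZ/+-labelled library. Without the 7 and 3 highest cells the ratios of these 4 were 2.28 to 3.85, though none was counted. After thinning to 2000 UMIs, Edem1 had 2.44 and Saraf 3.23, but Clec2d and Churc1 fell to 1.72. Hcfc1r1 and Ssbp1 were as spread, with 16.3% and 21.4% of these UMIs in 3 cells. Their ratios without the 7 and 3 highest cells were 2.71 and 1.84. All of these genes were named after their values were seen.

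The genes lower in the IL34LacZ/LacZ-labelled library included globins and 2 chemokines. Hbb-bs had 2472 CPM against 7548 CPM, but 95.9% and 99.1% of these UMIs came from 1 cell of the nonclassical monocyte-like subcluster in each library. Hbb-bt had 282 CPM against 1788 CPM. When the highest 2 and 1 cells of each gene were left out, the ratios of Hbb-bs, Hba-a1 and Hba-a2 were 1.44, 1.93 and 1.63, while that of Hbb-bt was 0.65, and 0.61 without 7 and 3. Reads of these genes are uncertain too, since the last 400 bases of Hbb-bs and Hbb-bt are 90.5% identical and those of Hba-a1 and Hba-a2 95.75%. Ccl2, the ligand of CCR2, had 66.1 CPM against 164 CPM (ratio 0.40, 0.28 to 0.58), from 69 UMIs in 17 cells and 60 UMIs in 10 cells. Cxcl2, a chemokine that draws neutrophils, had 79.5 CPM against 202 CPM (0.39, 0.28 to 0.54), in 12 and 8 cells, with 83.1% and 78.4% of UMIs in 3 cells. The ratio of Ccl2 lay between 0.25 and 0.45 in all 23 alternatives. It was 0.45 without its highest 2 and 1 cells and 0.39 without 7 and 3. Ccl2 was not counted in these 2 settings because it fell below the minimum of UMIs. The ratio of Cxcl2, by contrast, reached 1.04 when members needed 2 UMIs of Csf1r. In the comparison sets, Cxcl2 had 230 against 441 CPM in border macrophages, 17.7 against 10.9 in microglia and 252 against 191 in neutrophils. Ccl2 had 1004 against 816 CPM in border macrophages, 41.0 against 78.7 in microglia and 168 against 141 in neutrophils. Socs3, the feedback inhibitor of cytokine signalling, had 68.0 CPM against 137 CPM (0.50, 0.34 to 0.73). Ear2, a ribonuclease gene of the eosinophil family with a close copy in Ear1, had 128 against 260 CPM (0.49, 0.38 to 0.65). It was also among the leading genes of the nonclassical monocyte-like subcluster, found in 17 of its 23 cells. The Ear2 ratio depended on the setting and lay between 0.33 and 0.88 in the 23 alternatives. It was 0.88 after thinning, 0.76 with the mean of per-cell CPM and 0.77 within subclusters 1, 3 and 4. Ctsg had 199 against 369 CPM (0.54, 0.43 to 0.68) without passing 2-fold. Ttr was lower at 1288 against 2307 CPM (0.56, 0.51 to 0.61), as it was in the microglia of these libraries.

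By function, 15 of the 18 list medians lay below the median ratio of 1.05 over all 6675 genes with at least 20 UMIs. The count was 9 of 18 after thinning to 2000 UMIs, and the median over genes with at least 100 UMIs was 0.988. Classical genes outside the rule had a median ratio of 0.84, with 2 above and 13 below 1. Among them Lyz2 had a ratio of 0.86 (0.83 to 0.88), Ms4a6c 0.80 (0.71 to 0.89), F13a1 0.70 (0.59 to 0.83) and Cd14, the co-receptor for endotoxin, 0.64 (0.48 to 0.87), while Ifi27l2a had 1.02. Nonclassical genes had a median of 0.88 over 14 genes, and the class II list 0.93, from H2-DMb2 at 0.56 to H2-Oa at 1.23. Within class II, Cd74, the invariant chain, had 7791 against 8467 CPM (0.92, 0.88 to 0.96), H2-Eb1 2222 against 2048 CPM (1.09, 0.999 to 1.18), and H2-DMa 393 against 596 CPM (0.66, 0.56 to 0.78). No gene of these lists passed the 2-fold threshold in either direction.

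Interferon genes had a median ratio of 1.09 over 15 genes, and Isg15, a ubiquitin-like protein, was the only one of the 5 with at least 100 UMIs that passed the threshold, at 165 against 49.2 CPM (3.35, 2.05 to 5.78). Its 3 highest cells held 54.1% of the UMIs, and without the 7 and 3 highest cells the ratio was 1.47. The highest of all, with 50 UMIs, stood in the fibroblast-gene subcluster. Ifitm3, which blocks entry of viruses, had 2985 against 3428 CPM (0.87, 0.81 to 0.93) and was found in 101 and 47 cells. Cxcl10, an interferon-induced chemokine, had 53 UMIs in 10 cells against 0 UMIs. With 3 UMIs over the library put in place of 0 it was 6.19-fold higher. All 92 UMIs of Ccl5 came from 1 cell of the IL34LacZ/LacZ-labelled library. The cytokine list had a median of 0.95. Among its members, Ccl4 (640 against 481 CPM), Ccl6 (572 against 793) and Il1b (265 against 279), had ratios of 1.33, 0.72 and 0.95. Macrophage differentiation genes had a median of 1.46 over 12 genes, with Cd63 (156 against 57.4 CPM) and Cd81 (118 against 57.4), both tetraspanins, past the threshold, which is 2 of the 4 members with at least 100 UMIs beside 2.7% of all genes. The summed UMIs of the list ran the other way, at 2627 against 2846 CPM (ratio 0.92, 0.86 to 0.99), and its median was 0.90 without the highest 2 and 1 cells of each gene and 0.85 without 7 and 3. Apoe had a ratio of 0.90 and Lgals3, the galectin of activated macrophages, one of 0.74. Without the 3 Hmox1-high cells Cd63 had 96.1 against 57.4 CPM.

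The list of CSF and FLT3 receptors and ligands had a median of 1.03 over 7 genes. It also held the receptor genes Ifngr1 and Tnfrsf1b. Csf2ra stood at 169 against 159 CPM and Ifngr1, the interferon gamma receptor, at 259 against 380 CPM (0.68, 0.55 to 0.84). Transcription factors had a median of 0.95. Cebpb, needed for Ly6C-low monocytes, had 819 against 1099 CPM (0.75, 0.66 to 0.84), Klf4 417 against 440 CPM and Spi1, the gene of PU.1, 331 against 342 CPM. Immediate-early and stress genes, which tissue dissociation can induce, had a median of 0.98, with Fos at 3131 against 3576 CPM, Atf3 at 570 against 875 CPM (0.65, 0.57 to 0.75) and Hspa1a at 144 against 90.2 CPM (1.59, 1.09 to 2.40). Oxidative phosphorylation genes had a median of 0.92, lysosomal genes 0.98, cell cycle genes 0.91, MHC class I genes 1.16, adhesion genes 0.93 and Fc receptor genes 0.93. Y-linked genes were found in both libraries, at 154 against 197 CPM in sum.

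Markers of other cell types were counted in the same cells, over 20 lists. The rule removed cells with Cd3e or Cd79a, so low T cell and B-lineage markers follow in part from the selection. Of the T cell markers 7 and 8 of 10 were at 0 UMIs, Cd3e by the rule, with 6.70 against 5.47 CPM in sum. Of the B-lineage markers 6 and 7 of 10 were at 0, Cd79a by the rule. Microglia markers summed to 360 against 290 CPM and border macrophage markers to 775 against 897 CPM. Several lists rested on 1 cell: erythrocyte genes with 93.7% and 98.4% of their UMIs, mast cell and basophil genes with 88.5% and 75.8%, oligodendrocyte genes with 68.7% and NK cell genes with 52.8% in the IL34LacZ/LacZ-labelled library, and fibroblast genes with 58.4% in the IL34LacZ/+-labelled library. The highest cell held 38.8% and 30.1% of the endothelial UMIs. Fibroblast markers summed to 1101 against 473 CPM, astrocyte markers to 257 against 153 CPM, endothelial markers to 463 against 336 CPM and NK cell markers to 239 against 62.9 CPM. These last 4 sums were higher in the IL34LacZ/LacZ-labelled library, as the 51 genes were, and their part in those differences was not tested.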

How the data were processed

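Droplet single-cell libraries (Chromium 3′ kit version 3.1) held 18858 barcodes for IL34LacZ/LacZ and 17168 for IL34LacZ/+, with 95505407 and 87394167 UMIs. The authors deposited raw UMI counts per gene and barcode from Cell Ranger, whose version was 5.0.0 per the file headers. The build was GRCm38.p6 (mm10), per the submitters' processing notes. The quality filter required 1000 UMIs and 500 genes and allowed a mitochondrial share of 10%. Doublets were called with Scrublet's method at an expected 10% and kept. Counts were summed over the monocytes of a library and divided by their total (CPM). Intervals were exact (Poisson for levels, Clopper-Pearson for shares, conditional binomial for ratios) and cover counting error only. The threshold between libraries was a ratio of 2 or more, or 0.5 or less, with an interval excluding 1, for genes with 100 UMIs or more in all. List members needed 20 UMIs. Cells were clustered with Leiden (scanpy 1.11.5, leidenalg 0.10.2, 1500 variable genes, 20 principal components, 15 neighbours, resolution 1). Python 3.11.15, numpy 2.4.6, scipy 1.17.1 and, for TMM scaling, edgeR 4.0.16 were used, and the ratio code was tested on simulated data. Named genes were the genes of the rule, the list members with most UMIs or past the threshold, the 20 genes highest against the other cells, and the 10 genes higher and the 10 lower whose interval stayed furthest from 1. Some genes that this rule names are not reported here. The members and lists were chosen with earlier results of these data known. Promoters are from RefSeq. Alternatives covered the filters, the rule, doublets, scaling, thinning and left-out cells.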

Additional observations from a re-analysis of the deposited data

How the results depend on the processing

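The ratio of monocyte shares stayed between 1.52 and 2.08 under all 15 alternatives that bear on it. The count of genes at least 2-fold higher, 51 here, was 19 with at most 1 C1q UMI, 26 with at least 2 Csf1r UMIs, 31 without cells that held plasmacytoid or precursor list UMIs, 33 with the mean of per-cell CPM and 3 with cells thinned to 2000 UMIs, where 407 genes could be tested. It was 138 with a minimum of 50 UMIs, 16 with 200 and 325 with none. The count of genes at least 2-fold lower, 8 here, was 5 with at most 5% mitochondrial UMIs, 13 with the mean of per-cell CPM and 4 after thinning, and 22, 5 and 124 with minimums of 50, 200 and none. After thinning, 9 of the 18 list medians lay below that of all genes, against 15. Levels over other cells held for 82 genes, against 124, without plasmacytoid or precursor list cells. TMM scaling gave 44 higher and 9 lower genes and moved the median of all genes to 1.02, against 1.05.

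The settings that leave out the highest cells, a subcluster or the Hmox1 cells were chosen after seeing the data. Leaving out the highest 2 of 109 and 1 of 49 cells of each gene gave 18 higher and 1 lower among 1617 genes. Leaving out 7 and 3 cells gave 4 and 2 among 1256 genes. Without subcluster 2, 82 genes exceeded the other cells. Subclusters 1, 3 and 4 alone gave 31 higher genes, and leaving out the 3 cells highest in Hmox1 gave 32. Among the genes that the genotype rule names, directions turned for Mcpt8 (0.0184 with at most 1 C1q UMI, 0.0700 without 2 and 1 cells), Cxcl2 (1.04 with 2 Csf1r UMIs), Gja1 (0.901 in subclusters 1, 3 and 4) and Mt1 (0.865 without the Hmox1 cells, 0.618 without 7 and 3 cells). They also turned without 2 and 1, or 7 and 3, cells for Hbb-bs (1.44, 1.47), Hba-a2 (1.63, 1.49) and Hba-a1 (1.93, 2.01). Of the other genes past the threshold, these turned in at least 1 of 8 alternatives. Without the Hmox1 cells Lpl (0.476), Blvrb (0.879) and Clec4n (0.987) turned, and without 7 and 3 cells Lpl (0.613) and Blvrb (0.700). In subclusters 1, 3 and 4 Atp1b1 (0.669), Ccn3 (0.721) and Nedd4 (0.901) turned, and after thinning Itm2a (0.647), Cpa3 (0.862) and Prss34 (0.770). Prss34 was 0.859 with the mean of per-cell CPM and had 0 UMIs left in the IL34LacZ/LacZ-labelled library without 2 and 1 cells. Beyond the cells left out by construction, the cause was not tested. Leaving out cells over 6 other-cell lists left 0 cells, since Ttr reached nearly all. No paired analysis was possible because each genotype is 1 library.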
